A study of Mus musculus with 8 samples.

Results

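Collagens, laminins and integrins are the fibres, sheets and receptors by which cells hold on to the extracellular matrix. Here they are all genes of the deposited expression table whose symbol begins with Col, a number, a and a number, with Lama, Lamb or Lamc and a number, or with Itga or Itgb. The rule found 68 of the 15039 genes in the table: 36 collagen chains, 11 laminin chains, 19 integrin subunits, and *Itgb1bp1* and *Itgb3bp*, which carry an integrin name without being integrin subunits. The members were found by symbol alone, and no measured value entered the rule. The families themselves were chosen with earlier results of these data known.

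The question was how the messenger RNA of these genes in the prefrontal cortex (PFC) differed when the ubiquitin ligase Rnf146 was overexpressed. Wild-type (WT) male C57BL/6NCrljOri mice aged 6 weeks received bilateral PFC injections of an adeno-associated virus, either AAV2/1-hsyn-RNF146-eGFP or, in the control group, AAV2/1-hsyn-eGFP. Both groups therefore carried a virus and the fluorescent protein eGFP, and the human synapsin promoter in both vectors is one that works mainly in neurons. The PFC was dissected 4 weeks after injection, and bulk RNA sequencing gave 4 Rnf146 and 4 eGFP libraries with replicate numbers 1 to 4. The labels do not say whether each library came from a separate mouse, so p-values measure a spread over libraries. In the main fit this is the spread of the 4 differences between same-numbered libraries. No cell type was purified, so fewer cells of a type and less RNA per cell cannot be told apart.

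Collagens are trimers of chains in which glycine returns at a fixed step along the triple helix, as the first residue of each triplet. Fibrillar collagens form the cables of connective tissue, whereas collagen IV forms a network in basement membranes, the thin sheets that surround brain vessels and cover the brain under the meninges. Laminins are trimers of an alpha, a beta and a gamma chain and form the other main network of these sheets. Integrins are pairs of an alpha and a beta subunit in the cell membrane that bind these proteins outside the cell and connect them with the cytoskeleton inside.

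The deposited values were on a log2 scale and centred within each same-numbered pair of libraries, so that a gene holds its mean level and 4 independent differences. A difference below is taken within a pair, Rnf146 library minus eGFP library, in log2 units, and a level is a deposited log2 value, which is not divided by gene length. Because of the centring, the 4 Rnf146 and 4 eGFP values of a gene mirror each other, and the groups did not overlap whenever all 4 pairs had the same direction. *Rnf146* itself was higher by 2.82, 2.51, 2.66 and 2.58 in pairs 1 to 4, on average 2.64 ± 0.13 (SD, n = 4 pairs; limma adjusted p = 3.2e-07). Its order over the libraries follows the labels.

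Markers of neighbouring brain regions and of other cell types were read beside the members, in lists chosen with earlier results of these data known. Of 10 markers of cortical excitatory neurons, 8 had a mean difference below 0, 5 of them in all 4 pairs, with a median of -0.20. Limma called 2 of these, *Slc17a7* and *Neurod2*, both lower (adjusted p = 0.0922 and 0.0688). Markers of striatal neurons had a median difference of -0.13 in pair 1 and of 1.39, 0.65 and 0.31 in pairs 2 to 4, and oligodendrocyte markers went from -0.08 in pair 1 to 0.88 in pair 3. Limma called 0 of the 10 striatal and 0 of the 8 oligodendrocyte markers, although 9 and 8 had an unadjusted p below 0.05 (all genes: 12.4%). Septum and basal forebrain markers, of which 5 of 8 were analysed here, had medians of 0.47, 0.51, 0.30 and 0.51, with 4 called higher. Astrocyte markers had a median of -0.04. Markers of endothelial cells, mural cells and fibroblasts, which make much of the matrix of the brain, had medians of 0.00, 0.04 and -0.05, and 0 of their 10, 10 and 9 measured genes were called by limma (0, 0 and 2 with an unadjusted p below 0.05). No marker was at 0, since every value of the table lay far above it. The part of these marker shifts in the results below was not tested.

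Calls were made by limma with the replicate as a block, where the adjusted p did not exceed 0.1. In the PFC of Rnf146-overexpressing mice, 1 of the 68 members was called, *Col25a1*, which was higher. This is 1.47% of the members, beside 1.25% of all genes. A looser description is the count of members with the same direction in all 4 pairs, which was 20, or 29.4%, beside 20.6% of all genes. Of these 20, 8 were higher (all genes: 10.4%) and 12 were lower (all genes: 10.2%). An unadjusted p below 0.05 was found for 22 members, or 32.4%, beside 12.4% of all genes.

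Over all members the median difference was -0.02, with 28 members higher and 40 lower on average, and over all genes it was 0.00. By family, the median was -0.04 for the collagens, -0.01 for the laminins and -0.03 for the integrin subunits. In pairs 1 to 4 the median was -0.05, -0.02, -0.0022 and -0.03 over all members and -0.16, -0.03, -0.01 and -0.02 over the integrin subunits, below 0 each time, while the collagens and laminins had pair medians on both sides of 0. No list was tested for a shift. Differences fell with transcript GC content over 14590 matched genes (Spearman rho -0.285), whereas rho was 0.07 over the members. Median GC content was 53.9% for the members and 49.9% for the matched genes, and its part in the medians was not tested. The median size of a member's mean difference, without its sign, was 0.09, against 0.05 over all genes. The spread was wider too: the median SD over the 4 pairs was 0.13 for the members and 0.10 for all genes. Of the members, 27 had a mean level below 8.99, the limit of the lowest 25% of all genes, and on this scale the differences of weakly expressed genes may be understated.

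**Figure D1:**
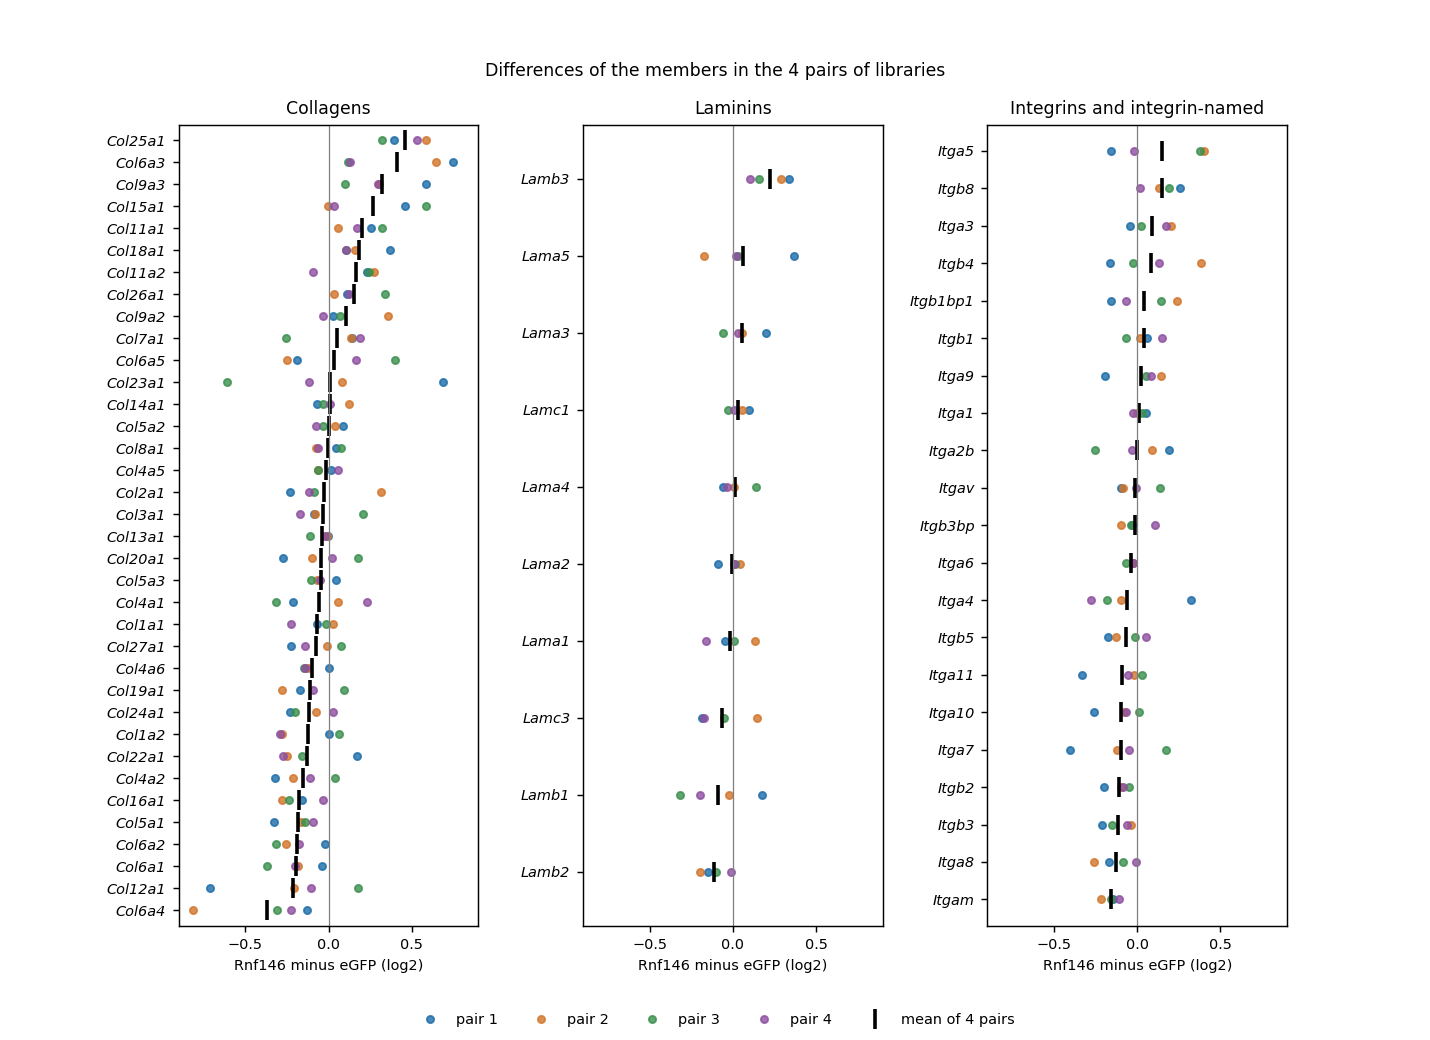
Rnf146 minus eGFP difference (x axis, log2 units) of the members (y axis), in panels for collagens, laminins and integrin-named genes, each sorted by the mean. Points are the 4 pairs and the black tick is their mean. *Col25a1* stands at the top of the collagens with all 4 points between 0.32 and 0.59, whereas *Col23a1* in the middle of the list spans from -0.61 to 0.69.

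*Col25a1* (chromosome 3 of GRCm39, 129925150 to 130393532, plus strand) encodes a transmembrane collagen that is made mainly by neurons and whose shed part is found in amyloid plaques. Its coding sequence is shown because *Col25a1* is the called member and because the sequence makes visible what it shares with the other collagens. The canonical transcript has 666 codons and 5 runs of triplets that begin with a glycine codon, covering 63.5% of the codons. Part of the longest run, which has 40 triplets and begins at codon 189, reads as follows on the coding strand, with the glycine codons in capitals.
Col25a1 coding stretch: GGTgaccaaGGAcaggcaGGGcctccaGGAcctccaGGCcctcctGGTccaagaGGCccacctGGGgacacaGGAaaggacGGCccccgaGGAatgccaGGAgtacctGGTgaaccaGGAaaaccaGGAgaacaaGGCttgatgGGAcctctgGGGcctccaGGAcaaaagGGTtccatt

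By the same count, the longest run was between 337 and 344 triplets in 9 of the fibrillar chains and 216 and 217 in *Col24a1* and *Col27a1*. The collagen IV chains had 16 to 23 shorter runs, the longest of 40 to 66 triplets. *Col6a1* and *Col6a2* had a longest run of 87 triplets, and *Col6a3* and *Col6a4* one of 45.

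The deposited values of *Col25a1* were 11.41, 11.31, 11.44 and 11.34 in eGFP libraries 1 to 4 and 11.80, 11.90, 11.77 and 11.87 in Rnf146 libraries 1 to 4. Every Rnf146 library was above every eGFP library. The differences were 0.39, 0.59, 0.32 and 0.53, on average 0.46 ± 0.12 (SD, n = 4 pairs), and had a 95% interval from 0.33 to 0.58, which corresponds to 1.37-fold on the deposited scale. Its limma adjusted p was 0.0161, rank 22 by p among all genes. With its mean level of 11.60, *Col25a1* was the second most abundant member on this scale. Without replicate 4 the difference was 0.43 with an adjusted p of 0.150, in a fit that called 14 genes in all. The septum and basal forebrain markers *Zic1*, *Zic4*, *Trpc4* and *Isl1* were called as well, all 4 higher. Their list was chosen with earlier results of these data known, and their relation to *Col25a1* was not tested. The other marker of that list, *Lhx6*, was lower in all 4 pairs, by 0.04, 0.08, 0.08 and 0.24 on the log2 scale (mean -0.11, limma adjusted p = 0.436). After a correction of the differences for transcript length and GC content, *Col25a1* had an adjusted p of 0.0120.

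*Col23a1* and *Col13a1* encode other transmembrane collagens. *Col23a1* differed by 0.69, 0.08, -0.61 and -0.12, the widest spread of all members, with a mean of 0.01. *Col13a1*, the member with the lowest level (8.29), was lower in all 4 pairs by amounts up to 0.11, on average -0.04 (limma adjusted p = 0.766). After the correction for GC content and length, its mean difference was 0.00048 (limma adjusted p = 0.997).

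**Figure D2:**
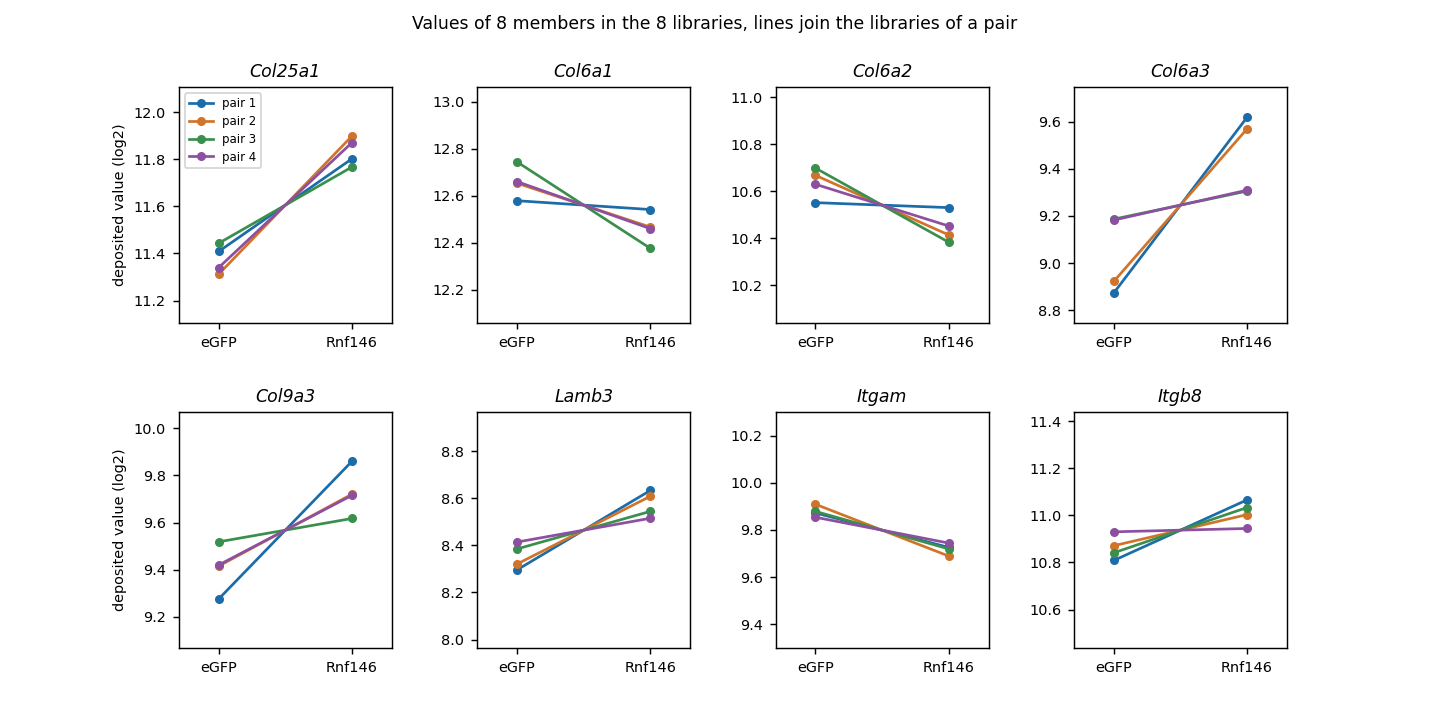
Deposited log2 values (y axis) of 8 members in the eGFP and Rnf146 libraries (x axis), with a line for each of the 4 pairs. Each panel spans 1 log2 unit, so slopes can be compared. The lines of *Col25a1* all rise, with the lowest Rnf146 value (11.77) above the highest eGFP value (11.44), those of *Col6a1* and *Col6a2* fall, and those of *Col6a3* rise steeply in pairs 1 and 2 only.

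Collagen VI forms beaded filaments near basement membranes. Its alpha 1 and alpha 2 chains, encoded by *Col6a1* and *Col6a2*, assemble with a further chain, alpha 3 or one of its relatives, encoded by *Col6a3*, *Col6a4* and *Col6a5* among others. In these libraries *Col6a1*, *Col6a2* and *Col6a4* were lower in all 4 pairs and *Col6a3* was higher in all 4 pairs, and limma called 0 of them. They belong to a list of 6 measured genes that also holds *Col6a5* and *Col7a1*. Of the 6, these 4 had an unadjusted p below 0.05 (66.7%, beside 12.4% of all genes). They are also the 4 of that list with 1 direction in all pairs. The 250 bases before the start of the canonical transcript are given for the called member and for 3 of these chains, because the alpha 1 and alpha 2 chains had one direction and the alpha 3 chain the other. The sequences were read from GRCm39 with GENCODE vM39 starts, run 5′ to 3′ on the strand of the gene, and carry in capitals the GC box (GGGCGG on either strand).
Col25a1, chr3:129974290-129974539, plus strand: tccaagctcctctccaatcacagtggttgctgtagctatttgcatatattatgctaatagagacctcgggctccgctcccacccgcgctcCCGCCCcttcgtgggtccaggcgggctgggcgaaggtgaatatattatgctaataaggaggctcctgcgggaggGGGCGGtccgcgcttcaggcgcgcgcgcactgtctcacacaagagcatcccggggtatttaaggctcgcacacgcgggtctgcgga
Col6a1, chr10:76562003-76562252, minus strand: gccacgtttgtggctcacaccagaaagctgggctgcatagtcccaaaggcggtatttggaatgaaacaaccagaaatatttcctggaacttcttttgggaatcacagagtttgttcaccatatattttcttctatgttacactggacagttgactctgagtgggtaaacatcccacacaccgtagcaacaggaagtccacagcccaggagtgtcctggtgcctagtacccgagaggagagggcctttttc
Col6a2, chr10:76459550-76459799, minus strand: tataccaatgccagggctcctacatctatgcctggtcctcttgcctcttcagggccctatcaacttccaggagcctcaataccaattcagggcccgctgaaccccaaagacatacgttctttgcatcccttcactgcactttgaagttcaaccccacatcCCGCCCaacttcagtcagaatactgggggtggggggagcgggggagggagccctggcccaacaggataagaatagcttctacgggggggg
Col6a3, chr1:90771781-90772030, minus strand: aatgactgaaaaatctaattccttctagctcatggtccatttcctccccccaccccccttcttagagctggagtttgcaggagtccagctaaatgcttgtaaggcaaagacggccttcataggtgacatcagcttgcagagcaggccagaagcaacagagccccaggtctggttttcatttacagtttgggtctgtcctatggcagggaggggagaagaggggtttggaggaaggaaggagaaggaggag

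The windows of *Col25a1* and *Col6a1* lie inside the annotated gene, where other transcripts begin further upstream. The *Col25a1* window has a GC content of 60.0% and 21 CpG dinucleotides, against 4, 5 and 1 CpG in those of *Col6a1*, *Col6a2* and *Col6a3* and a median of 12 over 14589 genes of the table. Windows of *Col4a1*, *Col5a1* and *Itga3*, which were not called, held 31, 27 and 23 CpG. A relation of CpG count to the differences was not tested. The GC box was found in 36 of the 68 member windows (52.9%) and in 46.7% of all windows. The TATA motif TATAAA was found in 8 member windows (11.8%) and in 7.68% of all. CTTTGAT, the core letters bound by TCF/LEF factors of the Wnt pathway, was found on either strand in 3 member windows (4.41%), those of *Col23a1*, *Col26a1* and *Col4a5*, and in 2.34% of all. A match is a description of the letters and not a binding site.

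*Col6a1* (chromosome 10, 76543440 to 76562283, minus strand) was the most abundant member at a mean level of 12.56. Its values were 12.58, 12.65, 12.74 and 12.66 in the eGFP libraries and 12.54, 12.47, 12.38 and 12.46 in the Rnf146 libraries. Pair 1 hardly differed and pair 3 differed most. The differences were -0.04, -0.19, -0.37 and -0.20, on average -0.20 ± 0.13 (SD, n = 4 pairs; limma adjusted p = 0.217). *Col6a2*, which lies on the same strand 83890 bases away, had differences of -0.02, -0.25, -0.31 and -0.18 and a mean of -0.19 ± 0.13 (limma adjusted p = 0.223). Both genes were thus lowest in pair 3 and nearest to 0 in pair 1. Leaving out replicate 1, the pair nearest to 0, moves both means away from 0 by construction. In that fit both were called, at -0.25 with adjusted p-values of 0.0810 and 0.0799 from limma.

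*Col6a3* (chromosome 1, 90693645 to 90771780, minus strand) had eGFP values of 8.87, 8.92, 9.19 and 9.18 and Rnf146 values of 9.62, 9.57, 9.31 and 9.31. The differences of 0.75 and 0.65 in pairs 1 and 2 stood apart from 0.12 and 0.13 in pairs 3 and 4. The mean was 0.41 ± 0.33 (SD, n = 4 pairs), and *Col6a3* was not called (limma adjusted p = 0.180). In *Col6a4* pair 2 carried most of the difference: the values were -0.13, -0.82, -0.31 and -0.22, with a mean of -0.37 ± 0.31 (limma adjusted p = 0.192). *Col6a5* had no common direction, from -0.25 to 0.40, with a mean of 0.03. *Col7a1*, the chain of anchoring fibrils, had a mean of 0.05 and was lower in pair 3 alone, by 0.26.

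Collagen IV is the collagen of vascular basement membranes. All 4 measured chains had a mean difference below 0, between -0.15 and -0.01, and 0 were called by limma or had 1 direction in all pairs. An unadjusted p below 0.05 was found for 2 of the 4, beside 12.4% of all genes. *Col4a1* and *Col4a2*, which lie head to head on chromosome 8 with 356 bases in common and form 1 trimer together, were among the 5 most abundant members. *Col4a1* differed by -0.21, 0.06, -0.31 and 0.23, with a mean of -0.06 ± 0.25 (95% interval -0.25 to 0.14; limma adjusted p = 0.840). *Col4a2* differed by -0.32, -0.21, 0.04 and -0.11, with a mean of -0.15 ± 0.16 (95% interval -0.29 to -0.01; limma adjusted p = 0.368). The pair of genes thus did not follow each other from pair to pair. *Col4a5* and *Col4a6*, head to head on chromosome X with 1281 bases between them, had means of -0.01 and -0.10.

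Fibrillar collagens numbered 11, of which 3 were higher and 8 lower on average, with a median of -0.04. *Col5a1*, the chain that starts and limits fibrils, was lower in all 4 pairs, by 0.33, 0.16, 0.14 and 0.10 on the log2 scale. Its mean was -0.18 ± 0.10 (SD, n = 4 pairs; limma adjusted p = 0.207). *Col11a1*, a related minor fibril chain of cartilage, was higher in all 4 pairs, by 0.26, 0.06, 0.32 and 0.17 (mean 0.20 ± 0.11, limma adjusted p = 0.193). The collagens of fibroblasts had smaller differences: -0.07 for *Col1a1*, -0.13 for *Col1a2* and -0.03 for *Col3a1*. Their 95% intervals ran from -0.19 to 0.05, from -0.29 to 0.04 and from -0.18 to 0.11. Levels of these 3 chains were low, between 8.48 and 9.69, as were those of the fibroblast markers, whose library means lay between 8.91 and 9.05 in the eGFP group and between 8.89 and 9.03 in the Rnf146 group.

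Collagens that sit on fibrils, known as FACIT collagens, were represented by 8 chains with a median of -0.08. *Col9a3*, a chain of the cartilage collagen IX, was the member with the next largest increase after *Col6a3*. Its eGFP values were 9.28, 9.42, 9.52 and 9.42, and its Rnf146 values were 9.86, 9.72, 9.62 and 9.72. All Rnf146 libraries were thus above all eGFP libraries, with pair 3 the closest. The differences of 0.58, 0.31, 0.10 and 0.30 averaged 0.32 ± 0.20 (SD, n = 4 pairs; limma adjusted p = 0.128). Leaving out replicate 3, the pair nearest to 0, raises the mean by construction, and in that fit *Col9a3* was called (0.40, limma adjusted p = 0.0919). *Tcfl5*, which overlaps its exons on the opposite strand, differed by -0.03. The choroid plexus marker *Clic6* was called, with differences of 0.52, 0.50, 0.53 and 0.61, and of the 6 markers of that tissue only *Clic6* and *Kl* (-0.04) were analysed here. *Col9a2*, its partner chain in the trimer, was higher by 0.36 in pair 2, and its other differences lay between -0.03 and 0.07.

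*Col16a1* was lower in all 4 pairs, by 0.16, 0.28, 0.24 and 0.03 on the log2 scale (mean -0.18 ± 0.11, limma adjusted p = 0.231). *Col12a1*, chosen after its values were seen, had the second largest mean decrease of the collagens, -0.21. Its pairs extended from -0.71 in the first to 0.18 in the third, and the mean was smaller than the SD of 0.37.

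The multiplexins, *Col15a1* and *Col18a1*, belong to vascular and epithelial basement membranes, and the tail of the latter is the source of endostatin. *Col18a1* was higher in all 4 pairs, by 0.37, 0.16, 0.10 and 0.10, on average 0.18 ± 0.13 (SD, n = 4 pairs; limma adjusted p = 0.233). Its antisense neighbour *Slc19a1*, which shares exon sequence, differed by -0.12. *Col15a1* had differences of 0.46, -0.01, 0.59 and 0.03 and a mean of 0.27 ± 0.30, so 2 of its 4 pairs showed almost none. *Col26a1* was higher in all 4 pairs, by 0.11, 0.03, 0.34 and 0.12 (mean 0.15 ± 0.13, limma adjusted p = 0.329).

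**Figure D3:**
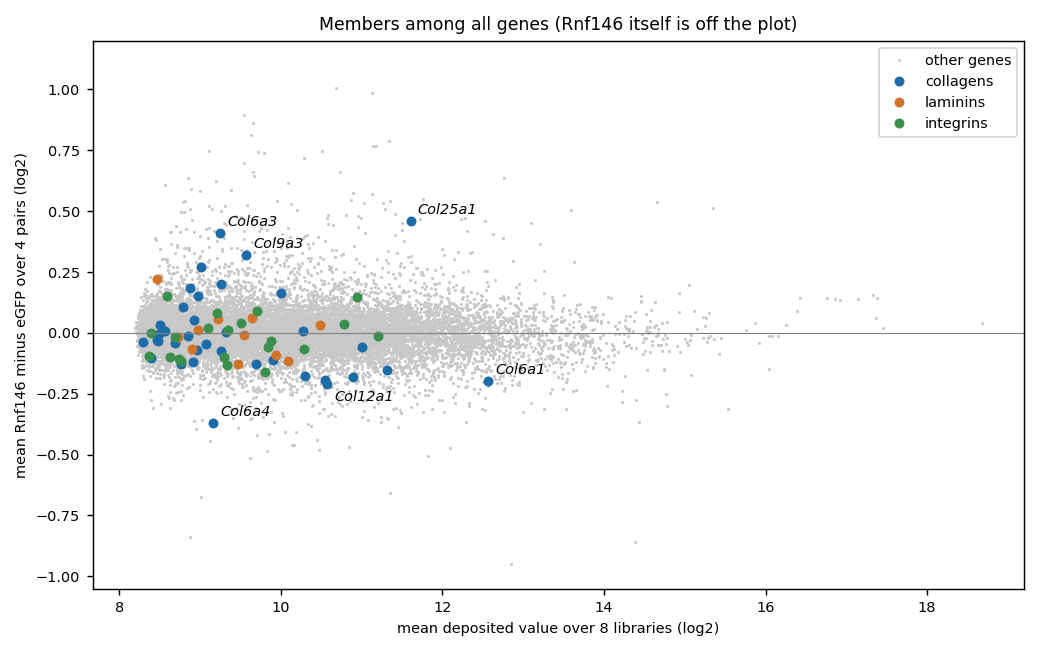
Mean deposited value over 8 libraries (x axis, log2) against mean Rnf146 minus eGFP difference over 4 pairs (y axis, log2), with collagens, laminins and integrins in colour over all other genes in grey. The most abundant members are *Col6a1* at 12.56 and *Col25a1* at 11.60, and the members lie on both sides of 0, between -0.37 for *Col6a4* and 0.46 for *Col25a1*.

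Laminin chains had a median difference, without its sign, of 0.06, against 0.12 for the collagens. Of the 11 chains, 5 were higher and 6 were lower on average, and 0 were called by limma. An unadjusted p below 0.05 was found for 2 of them (18.2%, beside 12.4% of all genes). The chain with the largest difference was *Lamb3* (chromosome 1, plus strand), the beta chain of laminin-332, known from epithelial basement membranes. It had eGFP values of 8.30, 8.32, 8.38 and 8.41 and Rnf146 values of 8.63, 8.61, 8.54 and 8.51. The groups did not overlap, although the level is near the bottom of the scale. The differences were 0.34, 0.29, 0.16 and 0.10, on average 0.22 ± 0.11 (SD, n = 4 pairs; limma adjusted p = 0.128). *G0s2*, which overlaps it on the opposite strand, differed by 0.03. *Lama3*, the alpha chain of the same laminin, had a mean of 0.06, with pairs on both sides of 0.

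The laminin chains of brain vessels and of the sheet around the brain had intervals that include 0, except *Lamb2*. *Lama2*, the alpha chain made by astrocytes and fibroblasts, had a mean of -0.01 (95% interval -0.12 to 0.10). For *Lama4*, the endothelial alpha chain, the mean was 0.01 (95% interval -0.10 to 0.13). *Lama5*, the other vascular alpha chain, had a mean of 0.06, but this came from 0.37 in pair 1 against -0.17, 0.03 and 0.02 in pairs 2 to 4, and the mean without replicate 1 was -0.04. *Lamc1*, the gamma chain common to most laminins, had a mean of 0.03 (95% interval -0.07 to 0.14). *Lamb1* went from 0.17 in pair 1 to -0.32 in pair 3, with a mean of -0.09. *Lamb2* was lower in all 4 pairs, by 0.15, 0.20, 0.10 and 0.01 on the log2 scale, with a mean of -0.12 ± 0.08 (limma adjusted p = 0.399).

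Among the integrins, the alpha subunits were grouped by ligand. The 3 measured collagen-binding subunits, *Itga1*, *Itga10* and *Itga11*, had means of 0.01, -0.10 and -0.09, and none had 1 direction in all pairs. The laminin-binding subunits *Itga3*, *Itga6* and *Itga7* had means of 0.09, -0.03 and -0.10. *Itga6* had the narrowest spread of all members, with differences of -0.02, -0.03, -0.07 and -0.02. Subunits that bind the RGD tripeptide of fibronectin and vitronectin had means of 0.15 for *Itga5*, -0.13 for *Itga8*, -0.01 for *Itgav* and 0.00 for the platelet subunit *Itga2b*. *Itga8* was lower in all 4 pairs, by 0.17, 0.26, 0.09 and 0.01 on the log2 scale (limma adjusted p = 0.383), and the antisense transcript *E030013I19Rik*, which overlaps it, differed by -0.14. *Itga5* was higher by 0.40 and 0.38 in pairs 2 and 3 and lower by 0.16 and 0.02 in pairs 1 and 4. *Itga4* and *Itga9*, related subunits of white blood cells and other cells, had means of -0.06 and 0.02.

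The beta subunits determine which alpha chains can reach the membrane. *Itgb1*, the partner of most alpha subunits, had values between 10.70 and 10.81 in the eGFP libraries and between 10.74 and 10.85 in the Rnf146 libraries. The groups overlapped, and the mean of 0.04 had a 95% interval from -0.08 to 0.15. *Itgb5*, a partner of *Itgav*, had a mean of -0.07 (95% interval -0.19 to 0.06). *Itgb8*, another partner of *Itgav* that is known for the activation of latent TGF-beta in the brain, was higher in all 4 pairs, by 0.26, 0.13, 0.19 and 0.01. Its mean was 0.15 ± 0.10 (SD, n = 4 pairs; limma adjusted p = 0.295). *Itgb3*, the beta chain of platelets and of vitronectin receptors, was lower in all 4 pairs, by 0.21, 0.04, 0.15 and 0.06 on the log2 scale (mean -0.12 ± 0.08, limma adjusted p = 0.372). *Itgb4*, the beta chain of hemidesmosomes, went from -0.16 to 0.38 with a mean of 0.08. The named genes that are no subunits, *Itgb1bp1* and *Itgb3bp*, had means of 0.04 and -0.02.

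*Itgam* and *Itgb2* encode CD11b and CD18, which together form the complement receptor of microglia and other myeloid cells. *Itgam* had eGFP values of 9.87, 9.91, 9.88 and 9.85 and Rnf146 values of 9.73, 9.69, 9.72 and 9.74. The groups did not overlap. The differences were -0.15, -0.22, -0.16 and -0.11, on average -0.16 ± 0.05 (SD, n = 4 pairs; 95% interval -0.26 to -0.05; limma adjusted p = 0.217). For *Itgb2* they were -0.20, -0.10, -0.05 and -0.08, on average -0.11 ± 0.07 (limma adjusted p = 0.387). Both subunits were thus lower in every pair by amounts that did not pass the threshold. All 10 microglia markers had a mean difference below 0, 7 of them in all 4 pairs, with a list median of -0.15 and pair medians of -0.18, -0.22, -0.12 and -0.09. Of these markers, *C1qb*, a chain of complement C1q, was called (-0.26, -0.29, -0.18 and -0.29; limma adjusted p = 0.0682). The mean over the 10 markers lay between 10.14 and 10.22 in the eGFP libraries and between 9.97 and 10.05 in the Rnf146 libraries, and its part in the values of *Itgam* and *Itgb2* was not tested.

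The other genes of the matrix and adhesion pathway, in 5 lists, gave 2 calls, both lower. In the 2 lists concerned, 1 call each is 3.85% and 3.33% of the measured genes, beside 1.25% of all genes. Of 26 collagen-modifying enzymes and chaperones, *Adamts2*, which removes the N-terminal propeptide of fibrillar procollagens, was lower by 0.37, 0.20, 0.35 and 0.21 on the log2 scale (mean -0.28, limma adjusted p = 0.0682). *Sparc*, a collagen-binding chaperone, had differences of 0.29, 0.16, 0.14 and 0.36 (limma adjusted p = 0.113). Of 30 integrin adaptor and signalling genes, *Tns2*, which encodes tensin-2, a link between integrins and actin, was lower by 0.42, 0.35, 0.16 and 0.21 (mean -0.29, limma adjusted p = 0.0821). Limma made 0 calls among 28 other matrix proteins, 17 proteases and inhibitors and 11 other matrix receptors, of which 6, 4 and 3 had an unadjusted p below 0.05. That is 21.4%, 23.5% and 27.3%, beside 12.4% of all genes. In the lists of *Adamts2* and *Tns2* it was 6 of 26 (23.1%) and 3 of 30 (10%). In the matrix protein list, the nidogens *Nid1* and *Nid2*, which bridge laminin and collagen IV, were higher in all 4 pairs with means of 0.08 and 0.18, while *Agrn*, the heparan sulfate proteoglycan agrin, was lower in all 4 with a mean of -0.10. The list medians lay between -0.02 and 0.02.

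**Figure D4:**
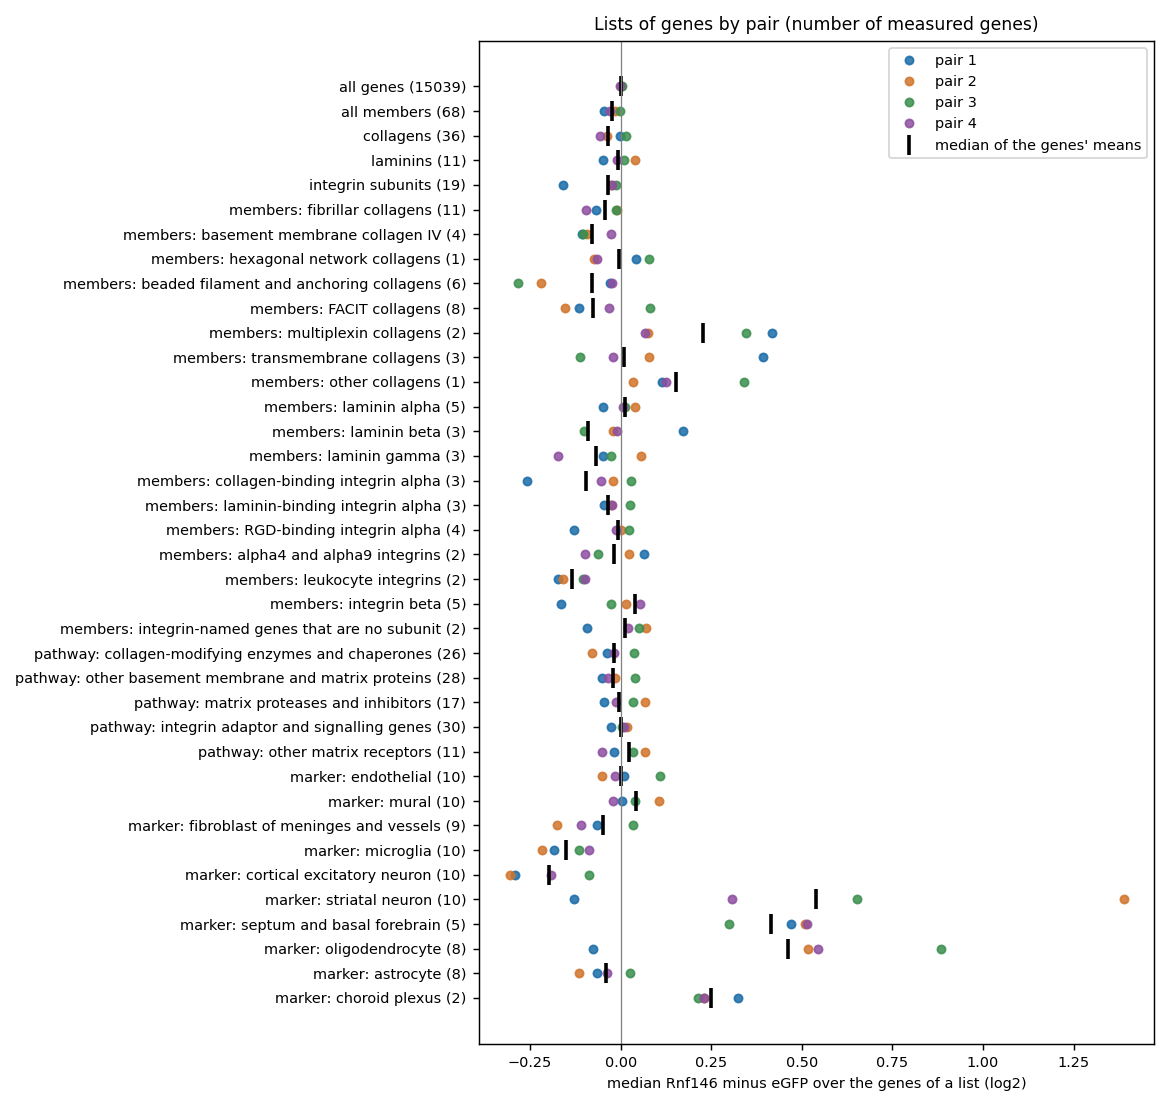
Median Rnf146 minus eGFP difference over the genes of each list (x axis, log2), with lists of members, pathway genes and cell type markers on the y axis and the number of measured genes in parentheses. Points are the 4 pairs and the black tick is the median of the genes' means. The pair medians of all members and of the collagens, laminins and integrin subunits lie between -0.16 and 0.04, and those of the striatal marker list between -0.13 and 1.39. All members, the integrin subunits and the microglia and cortical excitatory neuron lists lie below 0 in every pair. The same holds for the fibrillar, collagen IV and beaded filament collagens and for the leukocyte integrins. Above 0 in every pair lie the multiplexins, the other collagens (*Col26a1* alone), and the septum and basal forebrain and choroid plexus lists.

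Without the replicate block, limma called 23 of the 68 members, 10 higher and 13 lower, which is 33.8%, beside 21.5% of all genes. By family these were 16 of 36 collagens (44.4%), 2 of 11 laminins (18.2%) and 5 of 19 integrin subunits (26.3%). This fit counts the 8 mirrored values of a gene as 8 independent libraries, with 6 residual degrees of freedom in place of 3, although the table holds 4 differences per gene. Its adjusted p was 0.0299 for *Col6a3*, 0.00420 for *Itgam* and 0.00709 for *Lamb3*. An exact sign-flip test of 4 pairs gives a single gene a two-sided p of 0.125 at the smallest, for the 20 members with 1 direction as for any other gene of that kind.

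Another 19 genes of these families were not analysed here. They are the collagen genes *Col4a3*, *Col4a4*, *Col6a6*, *Col8a2*, *Col9a1*, *Col10a1*, *Col17a1*, *Col21a1* and *Col28a1*, and the integrin-named genes *Itga2*, *Itgad*, *Itgae*, *Itgal*, *Itgax*, *Itgb1bp2*, *Itgb2l*, *Itgb6*, *Itgb7* and *Itgbl1*.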

How the data were processed

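Libraries of PFC RNA, 4 for each virus, were made with a stranded mRNA kit. Reads were trimmed by the authors (Cutadapt), who estimated transcript abundance with Salmon 1.9.0 against GENCODE vM30 on GRCm39. The table deposited by the authors holds log2 values for 15039 gene symbols. Its transformation, and the centring that leaves equal sums in every pair of a gene (to within 1.4e-13), are not given in the sources used here, nor is Salmon's strand setting. Read depth is unknown, so no count interval is given. The submitters' processing notes also name DESeq2, in a role they do not give; no count test was run here. No per-sample column was left unused.

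Groups and pairs come from the labels' treatment and replicate number. The deviations of same-numbered libraries mirror each other exactly after the centring, so the number was a block in limma 3.58.1 (R 4.3.3; eBayes with trend after lmFit). P-values were adjusted by Benjamini-Hochberg over all 15039 genes, and the test was checked on simulated data. Whether mice of a pair shared a day or batch is not stated in the sources used here. Positions, windows of 250 bases and GC content come from GENCODE vM39 on GRCm39 (14590 genes matched, all 68 members included).

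The members and the gene lists were chosen with earlier results of these data known. Named were called members, the 8 largest increases and 8 largest decreases with 1 direction in all pairs, and chosen chains of vessels, fibroblasts and microglia; other members named were chosen after their values were seen. Alternatives were the fit without block, trend or low values, robust shrinkage, other scalings, a stricter threshold, each pair left out, and, added after the data were seen, a correction for GC content and length and counts of members with 1 direction. A member that counts toward the totals is not reported here by itself.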

Additional observations from a re-analysis of the deposited data

Results flagged for a closer look

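In *Itga6*, the laminin-binding subunit with the narrowest spread of the 68 members, the difference of pair 3 lay apart from the others. It was -0.0653, whereas the other 3 pairs lay at -0.02 and -0.03, and its gap divided by the range of the 4 values passed Dixon's 95% critical value for 4 values. *Itga6* was the 1 gene flagged in this way among the 33 named members. With *Itga6* included, 5 of the 68 members (7.35%) were flagged, beside 5.39% of all genes, where chance gives about 1 in 20.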

How the results depend on the processing

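Without the replicate block, 23 members and 3226 genes in all were called, against 1 and 188 with it, and the mean differences are the same by construction. *Col25a1* was the called member, and the count of members stayed at 1, without the mean-variance trend, with robust shrinkage, median centring or quantile normalization, without the lowest 25% of genes, at an adjusted p of 0.05 (where 80 genes were called in all) and after the correction for GC content and length. Median centring could hardly change the result, since the pair medians over all genes already lay between -0.0020 and 0.0037. Fits that left out 1 pair had fewer samples and called 0 to 3 members and 14 to 421 genes. Limma called 0 members without replicate 4 (18 with an unadjusted p below 0.05), where *Col25a1* was 0.43 (adjusted p = 0.150); 3 without replicate 1, with *Col6a1* and *Col6a2* added; and 2 without replicate 3, with *Col9a3* added. For each added gene, the pair left out was the one in which its difference was nearest to 0. Without replicate 2, 42 genes were called in all. The number of members with 1 direction in the 3 remaining pairs, which is met more often than 1 direction in 4, was 25 to 34 (36.8% to 50.0%, beside 30.2% to 36.2% of all genes), the highest without replicate 3 (all genes then: 33.8%). The median of the laminins, -0.01, lay between -0.0243 and 0.0298 with a pair left out, above 0 without replicate 4. The small means of some genes changed sign. With a pair left out, *Col3a1* lay between -0.112 and 0.0127 (above 0 without replicate 4), *Col4a1* between -0.155 and 0.0271 (without replicate 3), *Itgav* between -0.0631 and 0.0147 (0.0103 and 0.0147 without replicates 2 and 1) and *Lama2* between -0.0243 and 0.0191 (without replicate 1). *Lama4* lay between -0.0292 (without replicate 3) and 0.0363, and at -0.0011 with quantile normalization. *Lama5* lay between -0.0411 (without replicate 1) and 0.139, and *Itga1* was -0.0208 after the correction for GC content and length. The cause was not tested. Depth limits cannot be given, since the values hold no counts.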
